A study of Mus musculus with 2 samples.

Results

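Hox genes encode homeodomain transcription factors that specify position along the body axis. In mouse they lie in the clusters Hoxa, Hoxb, Hoxc and Hoxd, and the order of the genes along a cluster follows the order in which they are expressed from head to tail. Paralogue numbers mark this order, from the hindbrain and pharyngeal genes at the low end to the genes of limb ends, genital tract and tail at the high end. Hoxa3, in the group of paralogue number 3, is needed in mouse for the thymus to form from the third pharyngeal pouch. In medullary thymic epithelial cells (mTEC), which display antigens of many peripheral tissues to developing T cells, genes of other body regions are also transcribed, many of them under the regulator Aire.

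The members described here are the protein-coding genes named Hoxa, Hoxb, Hoxc or Hoxd followed by a number. These were 39 of the 23411 genes in the table, and for each the listed transcript that drew the most reads stood for the gene. The comparison was between 1 library of MHC-II high mTEC, the more mature fraction, and 1 library of MHC-II low mTEC, the less mature one. Both fractions were sorted by flow cytometry from 1 pool of 3 B6 mice, with no treatment named and no age given in the sources used here, and no group had a second library. All differences below are therefore between these 2 libraries, with no replicate check and no p-value. The interval given with a ratio is the 95% Clopper-Pearson interval (exact binomial) for the read counts, which covers counting error only.

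The MHC-II high library held 138368535 reads on all genes and the MHC-II low library 56077479, so values are more precise in the high library. Epithelial identity was present in both, with Epcam, the epithelial adhesion molecule, at 621 CPM (the read count scaled to library size) in MHC-II high and 586 CPM in MHC-II low. Aire was at 571 CPM in MHC-II high and 21.0 CPM in MHC-II low, in the direction of the sort. All 10 fibroblast and all 8 endothelial markers listed had reads in both libraries, and 7 of the 10 and 8 of the 8 were lower in MHC-II high beyond 2-fold, with 0 higher. Their summed levels were 195 CPM in MHC-II high against 1116 CPM in MHC-II low for fibroblasts and 64.5 CPM against 462 CPM for endothelium. Of 8 dendritic cell and macrophage markers 4 were higher and 1 lower, with a sum of 65.4 CPM in MHC-II high and 27.4 CPM in MHC-II low. By the same 2-fold rule 12.1% of all genes were higher and 16.3% lower.

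All 39 Hox genes had reads in both libraries, and most stood at low levels. On a per-length scale, RPKM computed with scaled library totals (scaled RPKM), the median Hox gene was at 0.597 in MHC-II high and 0.477 in MHC-II low. The median of all genes was 3.49 scaled RPKM in MHC-II high and 3.08 in MHC-II low. Hoxc11, Hoxd4, Hoxb13 and Hoxb9 were above that all-gene median in MHC-II high, and Hoxb2, Hoxa2 and Hoxa3 in MHC-II low. No Hox gene stood above the all-gene median in both. Reads per gene ran from 5 to 1932 with a median of 170 in MHC-II high, and from 4 to 592 with a median of 49 in MHC-II low.

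**Figure D1:**
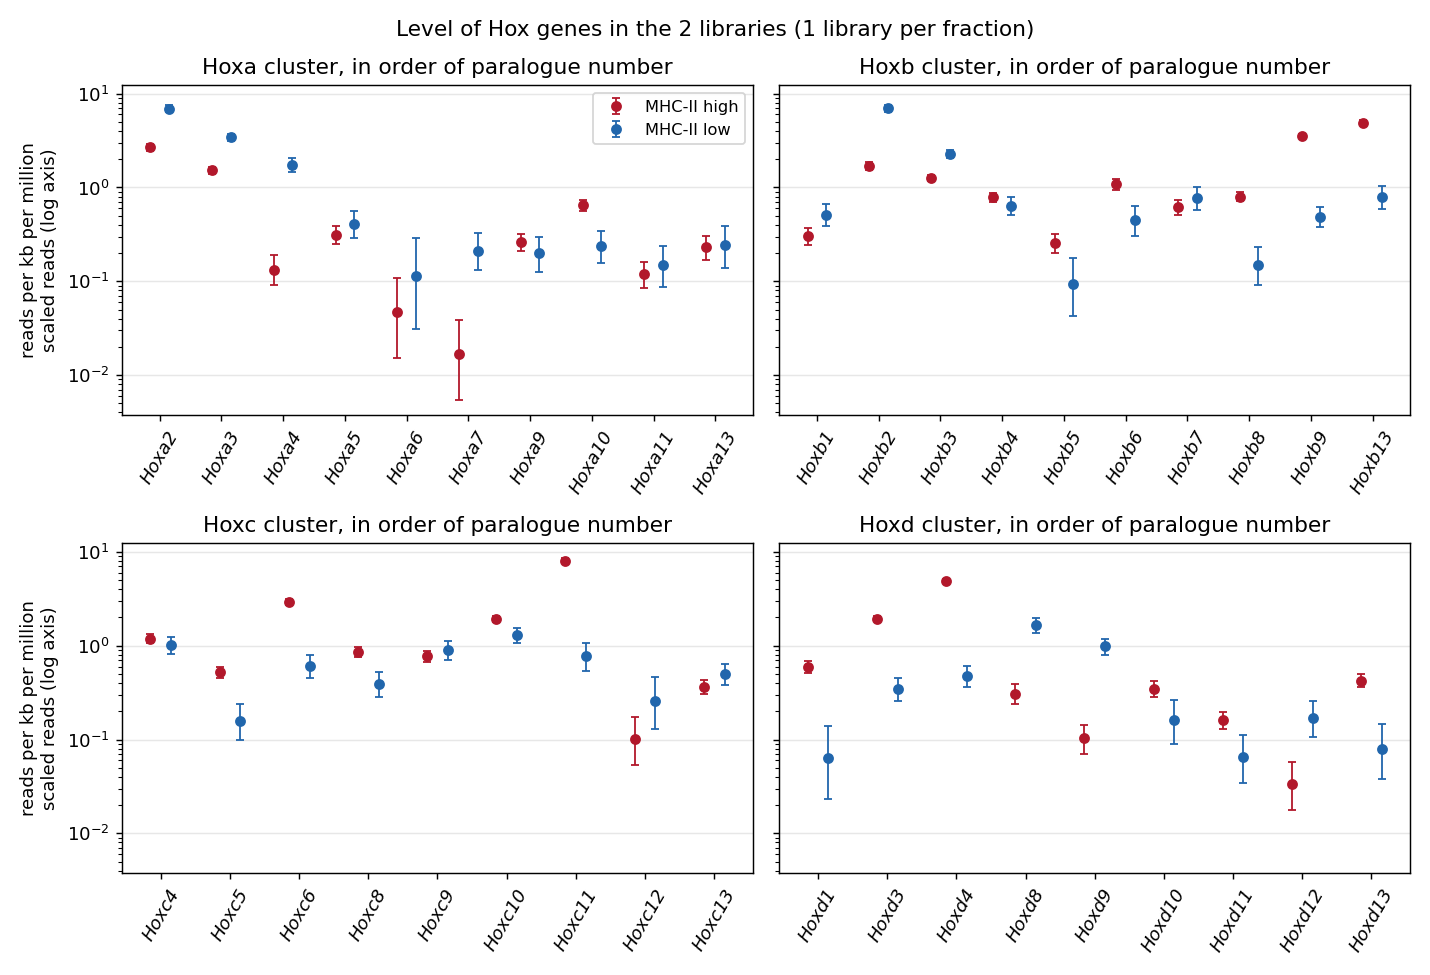
Level of the Hox genes named on the axis in scaled RPKM (log axis), by cluster and paralogue number, in the MHC-II high (red) and MHC-II low (blue) library, with exact 95% Poisson intervals of the reads. Hoxc11 was the highest in MHC-II high at 8.09 and Hoxb2 the highest in MHC-II low at 6.95.

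Single Hox genes differed between the libraries in both directions. Reads summed over all 39 genes were 89.0 CPM in MHC-II high and 72.1 CPM in MHC-II low, a ratio of 1.23 (interval 1.19 to 1.28) or 0.30 on the log2 scale. In place of that log2 ratio of 0.30, the sum gave a log2 ratio of 1.31 with the totals behind the RPKM. Over the members without overlapping annotation its log2 ratio was 1.13. A gene was called when its whole interval lay beyond 2-fold. By this rule, 10 of 39 Hox genes were higher and 8 lower in MHC-II high. Among all 23411 genes 12.1% were called higher and 16.3% lower. In these bulk samples, fewer cells of a type and less RNA per cell cannot be told apart. The higher Hox genes were Hoxb8, Hoxb9, Hoxb13, Hoxc5, Hoxc6, Hoxc11, Hoxd1, Hoxd3, Hoxd4 and Hoxd13. The lower ones included Hoxa2, Hoxa4, Hoxa7, Hoxb2, Hoxd8, Hoxd9 and Hoxd12. The median log2 ratio was 0.23 for the Hox genes and −0.14 for all genes, and the Hox ratios spanned −3.70 to 3.38 on the log2 scale. With the totals that the authors used for RPKM as the scale, 17 Hox genes were higher and 3 lower. That scale shifted the all-gene median by 1.003. Of all genes 36.3% were then higher and 7.36% lower, and 83.1% of all calls were higher in place of 42.6%.

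**Figure D2:**
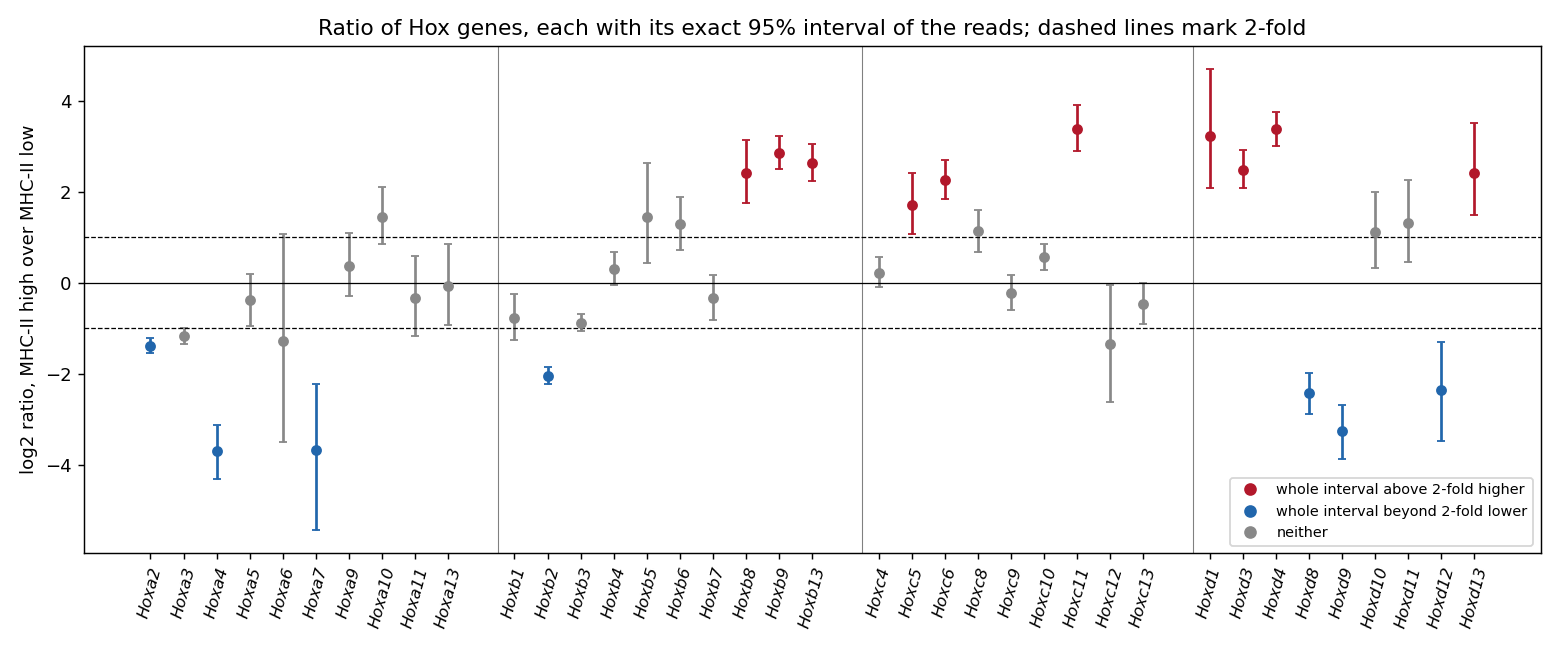
Log2 ratio of MHC-II high over MHC-II low for the Hox genes named on the axis, ordered by cluster and paralogue number, with exact 95% intervals of the reads. Red marks the 10 genes whose whole interval is beyond 2-fold higher and blue those whose whole interval is beyond 2-fold lower. Dashed lines mark 2-fold.

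Anterior genes, with paralogue numbers 1 to 3, pattern the hindbrain and pharyngeal arches. Hoxb2 and Hoxa2, whose levels there did not differ beyond counting error, had the highest levels of the Hox genes in MHC-II low, followed by Hoxa3 and Hoxb3. Hoxb2, a hindbrain gene, had 422 reads (1.70 scaled RPKM) in MHC-II high and 575 reads (6.95) in MHC-II low, and was 4.10-fold lower in MHC-II high (interval 3.61 to 4.66). With the totals behind the RPKM its log2 ratio was −1.03 in place of −2.04, and the call ended. Hoxa2, which in mouse sets the identity of the second pharyngeal arch, had 687 reads (2.67 scaled RPKM) in MHC-II high and 592 (6.94) in MHC-II low, 2.59-fold lower (2.32 to 2.90). Its log2 ratio was −1.38, against −1.09 with unscaled totals and −0.37 with the totals behind the RPKM, and neither of these was called. Despite that difference Hoxa2 still ranked 6 of 39 by level in MHC-II high, and Hoxb2 ranked 9. Hoxa3 had 591 reads (1.52 scaled RPKM) in MHC-II high and 442 (3.42) in MHC-II low. Its ratio was 0.444 with an upper limit of 0.504, just short of the call. Hoxb3, its paralogue, had 652 reads (1.26 scaled RPKM) in MHC-II high and 396 (2.30) in MHC-II low, a ratio of 0.547 (0.482 to 0.621).

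The anterior genes of the Hoxd cluster went the other way. Hoxd1 had 170 reads in MHC-II high and 6 in MHC-II low, 9.41-fold higher (interval 4.24 to 26.0). Hoxd3, which shapes the first neck vertebrae in mouse, had 861 reads (1.94 scaled RPKM) in MHC-II high and 51 (0.346) in MHC-II low, 5.61-fold higher (4.23 to 7.59). Per length, Hoxd3 was above Hoxa3 and Hoxb3 in MHC-II high and below both in MHC-II low.

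Central genes, with paralogue numbers 4 to 8, mark the neck and trunk. Hoxd4 had the most reads of any Hox gene in MHC-II high, 1932 (4.94 scaled RPKM), against 62 (0.477) in MHC-II low, and was 10.4-fold higher (interval 8.04 to 13.6). Its paralogue Hoxa4 was the reverse, with 31 reads (0.133 scaled RPKM) in MHC-II high and 134 (1.73) in MHC-II low, 13.01-fold lower (8.75 to 19.9). The paralogue Hoxc4 had 360 reads (1.19 scaled RPKM) in MHC-II high and 102 (1.01) in MHC-II low, with a ratio of 1.17 (0.939 to 1.48). Genes of paralogue number 4 were thus higher, lower and near equal in the same pair of libraries.

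Hoxc6, expressed at thoracic levels of the embryo, had 706 reads (2.90 scaled RPKM) in MHC-II high and 49 (0.606) in MHC-II low, 4.79-fold higher (interval 3.58 to 6.53). Hoxb8, used in mouse to immortalise myeloid progenitors, had 321 reads in MHC-II high and 20 in MHC-II low, 5.33-fold higher (3.39 to 8.85). Hoxc5 had 218 reads in MHC-II high and 22 in MHC-II low, 3.29-fold higher (2.12 to 5.36), a call that ended with the reads divided by 2. In the other direction, Hoxd8 had 67 reads (0.308 scaled RPKM) in MHC-II high and 119 (1.65) in MHC-II low, 5.35-fold lower (3.93 to 7.32), a log2 ratio of −2.42 that was −1.42 and no longer called with the totals behind the RPKM. Hoxa7 had 5 reads in MHC-II high and 21 in MHC-II low, 12.6-fold lower (4.64 to 42.9), and was the lowest Hox gene of MHC-II high.

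Posterior genes, with paralogue numbers 9 to 13, act in limbs, genital tract, hindgut and tail, and included the highest Hox gene of MHC-II high. That gene was Hoxc11, a gene of the lumbosacral trunk and hindlimb, with 1131 reads (8.09 scaled RPKM) in MHC-II high and 36 (0.775) in MHC-II low, 10.4-fold higher (interval 7.49 to 15.0). The table lists it by its coding length alone, as it does Hoxa6 and Hoxc12. Its per-length level is thus on a different footing from that of genes listed beyond their coding length. Listed lengths of other genes also differed from GENCODE in both directions, as for Hoxb13 (1313 bases listed, 2206 in GENCODE) and Hoxc8 (2369 and 1868). Hoxb13, a gene of prostate, hindgut and tail, had 987 reads (4.92 scaled RPKM) in MHC-II high and 53 (0.795) in MHC-II low, 6.19-fold higher (4.69 to 8.32). Its neighbour Hoxb9, which shapes the thoracic skeleton, had 1460 reads (3.54 scaled RPKM) in MHC-II high and 67 (0.489) in MHC-II low, 7.24-fold higher (5.67 to 9.39). Hoxd13, a digit gene, had 161 reads in MHC-II high and 10 in MHC-II low, 5.35-fold higher (2.83 to 11.4).

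Not all posterior genes were higher in MHC-II high. Hoxd9 had 33 reads (0.103 scaled RPKM) in MHC-II high and 105 (0.985) in MHC-II low, 9.58-fold lower (interval 6.42 to 14.6). Hoxd12 was 5.09-fold lower (2.46 to 11.01) on 13 reads in MHC-II high and 22 in MHC-II low, and was not called with the totals behind the RPKM or with the reads divided by 2. Hoxc10, which ranked 8 of 39 by level in MHC-II high and 7 in MHC-II low, had 565 reads (1.93 scaled RPKM) in MHC-II high and 126 (1.30) in MHC-II low, a ratio of 1.49 (1.23 to 1.82).

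The remaining 17 genes had 5 to 311 reads in MHC-II high and 4 to 83 in MHC-II low, and log2 ratios of −1.35 to 1.46. They include Hoxa9 and Hoxb4, which act in blood stem and progenitor cells, Hoxa5 of the airway, Hoxa13 of digits, and Hoxc13 of hair and nail. Of these 17, 9 were within 2-fold, and the intervals of 8 contained a ratio of 1. Hoxa10, Hoxb5, Hoxb6, Hoxc8, Hoxd10 and Hoxd11 had ratios above 2 with lower limits below it. Hoxa10, a gene of the uterus and lumbar spine, had 215 reads in MHC-II high and 26 in MHC-II low, a ratio of 2.75 (interval 1.82 to 4.30). Its other listed transcript, which shares reads, gave 3.72 (2.33 to 6.31), the only isoform of a Hox gene to change side of the call.

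By cluster, Hoxa had 0 of 11 genes called higher and 4 lower. From Hoxa2 to Hoxa7 all log2 ratios were negative (−3.70 to −0.38). Hoxb had 3 of 10 higher and 1 lower, with negative log2 ratios for Hoxb1 to Hoxb3 and positive ones from Hoxb4 on, except for Hoxb7 at −0.33. On the totals used for RPKM, the log2 ratios of Hoxa5, Hoxb1, Hoxb3 and Hoxb7 turned positive. Hoxc had 3 of 9 higher and 0 lower. In Hoxd, 4 of 9 were higher and 3 lower, and direction changed 4 times along the cluster. Hoxd1, Hoxd3 and Hoxd4 were higher, Hoxd8 and Hoxd9 lower, Hoxd10 and Hoxd11 at log2 ratios of 1.12 and 1.31, Hoxd12 lower and Hoxd13 higher.

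The composition of the summed per-length level, which does not depend on the scaling of the libraries, also differed. Anterior genes made up 21.6% of the summed Hox level in MHC-II high and 56.7% in MHC-II low, central genes 31.5% and 23.8%, and posterior genes 46.9% and 19.6%. Hoxa genes made up 13.04% in MHC-II high and 38.2% in MHC-II low, and Hoxc genes 35.6% and 15.8%. These sums rest on few genes, the 3 highest holding 38.2% in MHC-II high and 46.4% in MHC-II low. They also rest on the listed lengths, with the coding length alone for Hoxc11. By reads, posterior genes made up 38.9% in MHC-II high and 18.6% in MHC-II low, and Hoxc genes 26.8% and 14.6%. Anterior genes made up 26.0% and 59.8% of the reads. Summed Hoxa reads were 2.25-fold lower (interval 2.09 to 2.41) in MHC-II high, a call that ended with DESeq2 size factors and with unscaled totals. Over the Hoxa genes without overlapping annotation the log2 ratio was 0.46 in place of −1.17. Reads summed over the posterior genes were 2.58-fold higher (interval 2.38 to 2.80), and without Hoxb9 their log2 ratio was 1.05 in place of 1.37. Anterior reads were 1.86-fold lower (1.77 to 1.97), short of the call, but over the anterior genes without overlapping annotation the log2 ratio was 0.56 in place of −0.90. Only Hoxb1 and Hoxd1 were left there, with 96 and 170 reads in MHC-II high and 54 and 6 in MHC-II low.

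**Figure D3:**
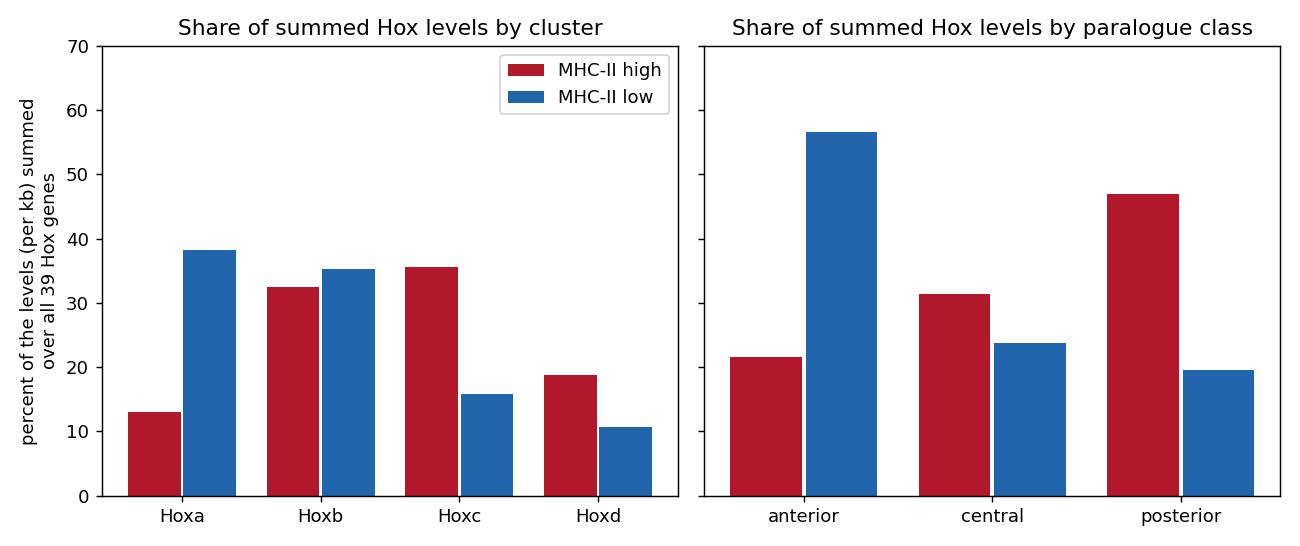
Percent of the summed per-kilobase Hox level held by each cluster (left) and by the anterior (1 to 3), central (4 to 8) and posterior (9 to 13) paralogue classes (right), in the MHC-II high (red) and MHC-II low (blue) library. Anterior genes hold 21.6% in MHC-II high and 56.7% in MHC-II low. Hoxc11 enters by its coding length alone.

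Signs were also compared along and between clusters. Of 35 pairs of adjacent genes, 23 had ratios of the same sign, with a median difference of 1.17 between their log2 ratios. Of 42 pairs of genes with the same paralogue number in different clusters, 19 had the same sign, with a median difference of 2.62. These counts were not tested, and adjacent genes such as Hoxd3 and Hoxd4 can share reads, as given below. Over the 39 genes the log2 levels of the libraries had a Pearson r of 0.45 and a Spearman rho of 0.45, and paralogue number had an r of 0.14 and a rho of 0.17 with the log2 ratio. Genes are no replicates, and all points share the same 2 libraries.

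The Hoxd cluster shows calls in both directions among adjacent genes, so the 200 bases before the start of 5 of its called genes are given, with those of Hoxb8. The sequences are from RefSeq on GRCm38.p6, all on the plus strand, a later build than the mm9 of the study. Capitals mark matches on either strand to the TATA box core TATAAA, the CCAAT box, the GC box GGGCGG, the nuclear receptor element AGGTCA and the joint site of Pbx and Hox proteins TGATNNAT, and overlapping matches are joined. Hoxd4, Hoxd1, Hoxd13 and Hoxb8 were higher in MHC-II high, and Hoxd8 and Hoxd9 lower.
Hoxd4 (chr2:74721778-74721977): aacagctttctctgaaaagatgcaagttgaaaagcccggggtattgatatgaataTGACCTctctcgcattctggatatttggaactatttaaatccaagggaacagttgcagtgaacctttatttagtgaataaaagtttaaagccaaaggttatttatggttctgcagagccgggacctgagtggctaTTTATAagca
Hoxd1 (chr2:74762780-74762979): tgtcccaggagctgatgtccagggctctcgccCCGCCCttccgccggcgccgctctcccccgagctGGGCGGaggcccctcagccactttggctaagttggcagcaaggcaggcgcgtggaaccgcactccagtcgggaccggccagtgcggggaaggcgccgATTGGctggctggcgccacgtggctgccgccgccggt
Hoxd13 (chr2:74668025-74668224): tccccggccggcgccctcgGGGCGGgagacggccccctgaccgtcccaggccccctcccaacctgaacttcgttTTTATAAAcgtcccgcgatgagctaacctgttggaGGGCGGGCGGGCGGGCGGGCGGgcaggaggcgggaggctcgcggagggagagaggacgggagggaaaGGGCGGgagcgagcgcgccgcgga
Hoxd8 (chr2:74704415-74704614): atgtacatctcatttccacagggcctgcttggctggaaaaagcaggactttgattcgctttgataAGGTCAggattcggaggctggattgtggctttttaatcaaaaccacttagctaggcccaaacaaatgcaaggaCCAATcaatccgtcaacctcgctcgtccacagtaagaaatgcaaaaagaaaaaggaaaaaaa
Hoxd9 (chr2:74697563-74697762): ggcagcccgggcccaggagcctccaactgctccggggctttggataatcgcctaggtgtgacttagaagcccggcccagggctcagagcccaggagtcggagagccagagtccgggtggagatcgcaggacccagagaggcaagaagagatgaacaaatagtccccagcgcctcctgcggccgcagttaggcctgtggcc
Hoxb8 (chr11:96281705-96281904): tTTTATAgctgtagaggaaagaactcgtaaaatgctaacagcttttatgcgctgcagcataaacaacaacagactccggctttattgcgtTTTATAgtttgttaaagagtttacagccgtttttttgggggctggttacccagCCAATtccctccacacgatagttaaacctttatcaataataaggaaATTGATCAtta

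These 6 sequences differ in make-up within both directions. Among the higher genes, Hoxd1 and Hoxd13 had 21 and 26 CpG and a GC content of 73% and 73.5%, while Hoxd4 and Hoxb8 had 3 and 6 CpG and 38.5% and 37.5%. Of the lower genes, Hoxd8 had 5 CpG and 43% GC and Hoxd9 10 CpG and 64.5%. AGGTCA matched once in Hoxd4, which was higher, and once in Hoxd8, which was lower. Promoters of 22 of the 39 Hox genes were matched by symbol in the RefSeq table. AGGTCA occurred in 27.3% of the 22, against 11.2% of 27025 genes, CCAAT in 45.5% against 30.0%, TGATNNAT in 13.6% against 5.98%, TATAAA in 13.6% against 10.6% and GGGCGG in 31.8% against 31.3%. A match describes letters only.

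Hox clusters also carry noncoding genes. Hotair, a long noncoding RNA transcribed between Hoxc11 and Hoxc12 on the opposite strand, had 903 reads in MHC-II high and 39 in MHC-II low, 7.69-fold higher (interval 5.58 to 10.9). It was the only one of the 10 listed noncoding genes in the table to be called, while its neighbours stood at 10.4-fold higher for Hoxc11 and a ratio of 0.393 (0.162 to 0.968) for Hoxc12. Hoxa11os, on the opposite strand of Hoxa11, had 57 reads in MHC-II high and 17 in MHC-II low. The clusters hold miRNA genes of the miR-10 and miR-196 families, whose mature RNAs repress Hox messages. These are shown for their position beside the called genes, Mir10b beside Hoxd4 and Mir196a-1 between Hoxb9 and Hoxb13, with the seed (bases 2 to 8) in capitals.
mmu-miR-10a-5p: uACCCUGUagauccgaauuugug
mmu-miR-10b-5p: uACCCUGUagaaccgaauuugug
mmu-miR-196a-5p: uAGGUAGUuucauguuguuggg
mmu-miR-196b-5p: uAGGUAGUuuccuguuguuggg
The miR-10 pair shares 1 seed and the miR-196 pair another. A poly-A library does not measure mature miRNAs. On the hairpin genes, Mir196a-1 had 12 reads in MHC-II high and 0 in MHC-II low, Mir196b 2 and 0, and Mir196a-2 0 and 2. Mir10a and Mir10b had 0 in both.

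Because the libraries do not keep strand and the clusters are dense, reads of overlapping genes cannot be told apart. In the GENCODE annotation, 88.0% of the exon bases of Hoxd3 and 45.1% of those of Hoxd4 also lie in exons of other genes, chiefly the same-strand transcript Gm28230, and 13.1% of those of Hoxd3 lie in exons of Hoxd4. For Hoxb3 the share was 70.5% and for Hoxb2 58.5%, both with Hoxb3os on the opposite strand. Hoxa2, Hoxa3, Hoxa4 and Hoxa7 had 15.0%, 29.5%, 15.998% and 28.8%. Hoxa11 had 35.0%, with Hoxa11os on the opposite strand. For Hoxc10 the share was 8.70%, with an isoform of Hoxc5 other than the listed one. By contrast, Hoxb8, Hoxb9, Hoxb13, Hoxc5, Hoxc6, Hoxc11, Hoxd1, Hoxd13, Hoxd8, Hoxd9 and Hoxd12 had none. Over the 25 members with an overlap of at most 5%, 8 were higher and 3 lower. No 100-base window of a Hox transcript occurred in a transcript of a paralogue in another cluster, so exact matches of this length separate the paralogues. Whether reads aligned with mismatches did so was not tested.

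Genes that work with or upstream of Hox genes were read from lists, against the same background of 12.1% higher and 16.3% lower. Their counts also moved with the scaling, most with the totals behind the RPKM (RPKM totals below). The background moved too. With the RPKM totals 36.3% of all genes were higher and 7.36% lower. These shares were 16.4% and 12.8% with unscaled totals, and 13.6% and 14.8% with DESeq2 size factors. Of 9 genes for TALE cofactors, the homeodomain proteins that bind DNA jointly with Hox proteins, 0 were higher and 1 lower. The list had a median log2 ratio of −0.25, and with the RPKM totals 2 were higher and 0 lower. Meis1 was the lower one, with 24.7 CPM in MHC-II high and 66.6 CPM in MHC-II low, 2.70-fold lower (interval 2.58 to 2.83). Meis2 stood at 105 CPM in MHC-II high and 110 CPM in MHC-II low. Pknox2 had a log2 ratio of −0.83.

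Polycomb genes encode the complexes that keep Hox clusters silent, and 4 of 19 were higher and 1 lower. Their median log2 ratio was 0.21. With the RPKM totals 10 were higher and 0 lower, against 36.3% and 7.36% of all genes. Ezh2, the H3K27 methyltransferase, had 38.8 CPM in MHC-II high and 12.03 CPM in MHC-II low, 3.22-fold higher (interval 2.96 to 3.51), and Phc3 was 2.93-fold higher (2.84 to 3.03). Suz12 and Jarid2 were the other higher ones and Cbx6 the lower one, a call that ended with DESeq2 size factors, unscaled totals and RPKM totals. Of 9 genes for trithorax proteins and H3K27 demethylases, which counter that silencing, 1 was higher and 0 lower, and the list had a median of −0.21. With DESeq2 size factors or unscaled totals 2 were higher, and with the RPKM totals 3. The higher one was Kdm6a, 2.16-fold higher (2.07 to 2.25), while Kdm6b was at 138 CPM in MHC-II high and 67.7 CPM in MHC-II low, a ratio of 2.04 (1.97 to 2.12), and Kmt2a had a log2 ratio of −0.03.

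Retinoic acid induces anterior Hox genes, and of its 15 listed genes 5 were higher and 2 lower, at a median log2 ratio of 0.30. The retinoic acid-degrading enzyme gene Cyp26a1 was 10.7-fold higher (interval 9.10 to 12.6), at 33.6 CPM in MHC-II high and 3.15 CPM in MHC-II low, and Crabp1, a retinoic acid binding protein gene, was 9.98-fold higher (8.51 to 11.8). The receptor genes Rarb and Rarg were lower, Rarb 2.42-fold (2.15 to 2.73), but neither was called with DESeq2 size factors, unscaled totals or RPKM totals. With the RPKM totals 9 of the 15 were higher, at a median of 1.30. On that scale 36.3% of all genes were higher, at a median of 0.87. Cyp26c1, Aldh1a2 and Rxrg were the other higher ones. Aldh1a3 and Rxra, with the most reads of the list, had log2 ratios of 0.79 and −0.76. Of 6 Cdx and ParaHox genes, 2 were higher and 0 lower, at a median log2 ratio of 1.11, and with the RPKM totals 4 were higher. Cdx1, which regulates trunk Hox genes in the embryo and is also an intestinal gene, was 5.07-fold higher (4.87 to 5.29), at 243 CPM in MHC-II high and 48.0 CPM in MHC-II low. Cdx2 stood at 6.54 and 3.29 CPM, a ratio of 1.99 (1.69 to 2.36). Gsx1, a ParaHox gene, had 85 reads in MHC-II high and 0 in MHC-II low, where a count of 0 allows 0.0591 CPM.

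Of 15 genes that flank the clusters, 2 were higher and 4 lower, at a median log2 ratio of −0.21. These counts were 3 and 2 with unscaled totals, and 5 and 0 with the RPKM totals. With the RPKM totals 36.3% of all genes were higher and 7.36% lower. Evx1, next to Hoxa13, had 24 reads in MHC-II high and 44 in MHC-II low, 5.52-fold lower (interval 3.28 to 9.49). Evx2, next to Hoxd13, had 6 reads in MHC-II high and 18 in MHC-II low, 9.03-fold lower (3.43 to 27.8), beside a Hoxd13 that was higher. Skap2 and Calcoco1 were the other lower ones and Ttll6 a higher one. Snx10 was 2.30-fold higher (2.21 to 2.39), and Snx11 had a log2 ratio of 0.68.

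Among 97 homeobox genes outside the clusters, 17 were higher and 8 lower. The median log2 ratio there was 0.32. With unscaled totals 23 were higher and 5 lower, and with the RPKM totals 41 and 2, at a median of 1.33. On the RPKM totals 36.3% of all genes were higher and 7.36% lower, at a median of 0.87. Lhx3 had 418 reads in MHC-II high and 9 in MHC-II low, 15.4-fold higher (interval 8.05 to 34.0), and En2, a midbrain gene, was 12.9-fold higher (5.84 to 35.5). Isl1 had a log2 ratio of −0.75. Of 10 pharyngeal pouch genes, several of which act with Hoxa3 in thymus formation, 1 was higher and 1 lower, at a median log2 ratio of 0.11, and with the RPKM totals 4 were higher and 0 lower. Foxn1 was 3.24-fold higher (3.09 to 3.41) and Pax1 2.71-fold lower (2.63 to 2.79), while Pax9 had a log2 ratio of 0.02. No difference between the Hox genes and these lists was tested.

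**Figure D4:**
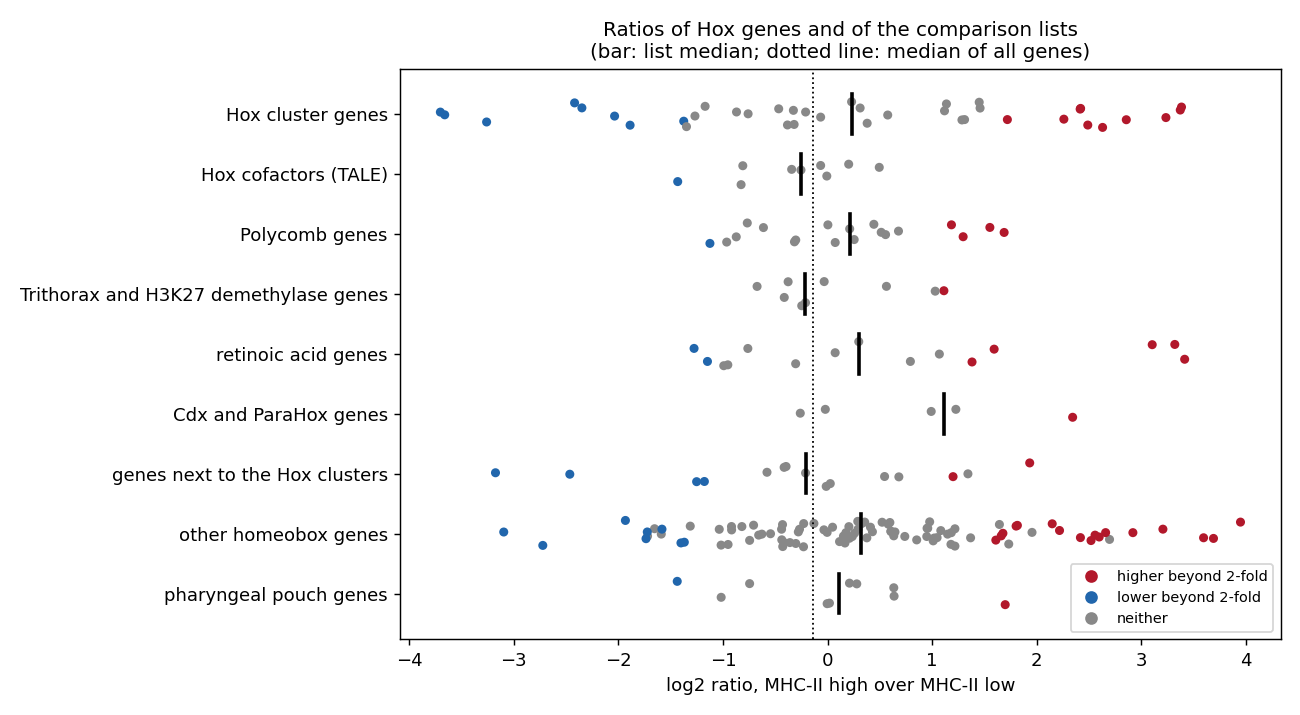
Log2 ratio of MHC-II high over MHC-II low for each Hox gene and each gene of 8 comparison lists. Points are genes, red and blue mark genes called higher and lower, black bars are list medians and the dotted line is the median of all genes (−0.14). Gsx1, with 0 reads in MHC-II low, is not drawn.

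Many markers of cell state and of other cells also differed between the libraries. Their counts stand against 12.1% of all genes called higher and 16.3% called lower, and some lists were near those shares. Beside the lower Hox genes, fibroblast and endothelial sums were lower in MHC-II high, as given above, and 5 of 6 markers of immature and basal mTEC and 5 of 6 of tuft-like cells were lower with 0 higher. Their sums were 2018 CPM in MHC-II high against 16476 CPM in MHC-II low for immature and basal mTEC and 420 CPM against 1512 CPM for tuft-like cells. Beside the higher ones, 6 of 6 markers of mature mTEC were higher, with a sum of 1555 CPM in MHC-II high and 306 CPM in MHC-II low, and 2 of 5 B cell markers, with 30.1 and 24.1 CPM. Of 5 general haematopoietic markers, Laptm5 was higher and Vav1 lower, with sums of 661 CPM in MHC-II high and 341 CPM in MHC-II low. Laptm5 alone was at 590 CPM in MHC-II high and 184 CPM in MHC-II low. Of 9 thymocyte markers, 1 was higher and 3 lower, with sums of 44.9 and 66.5 CPM. Of 6 erythroid genes 1 was higher and 2 lower, and they summed to 63.1 CPM in MHC-II high and 2142 CPM in MHC-II low. The part of these cells in the Hox values was not tested, and none of these markers was at 0 in either library.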

How the data were processed

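RNA was extracted with Trizol from flow-sorted cells and sequenced from poly-A libraries that do not keep strand, per the labels' protocols. Processing used CASAVA, Bowtie 1.0.0, bedtools and mm9, per the submitters' processing notes. The deposited tables give, per RefSeq transcript, a whole-number read count, a length and the authors' RPKM, which was recomputed within 1e-06 from 213854095 reads for MHC-II high and 142330178 for MHC-II low. The counts on transcripts summed to 191391401 reads in MHC-II high and 74029717 in MHC-II low, both below those totals. Isoforms can share reads. Malformed lines (18 in MHC-II high, 36 in MHC-II low) were left out. The 840 repeated lines in MHC-II high were added to the reads and length of their transcript. Gene values used only transcripts with the same length in both libraries, so 33 with different lengths were left out. Whether mates were counted apart is not given in the sources used here.

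Accessions were mapped to symbols with RefSeq and GENCODE, 394 of 29920 having none, and the transcript that drew the most reads in the 2 libraries together stood for each gene. Totals were scaled by TMM (edgeR 4.0.16, R 4.3.3) over genes whose mean CPM reached 1, giving 152834157 for MHC-II high and 50769794 for MHC-II low. Ratios and exact intervals were computed with scipy 1.17.1, with no expression minimum, and the calculation was tested on simulated data. A gene was called when its 95% interval lay wholly beyond 2-fold. With 1 library per group no test between conditions was possible. DESeq2 1.42.0 size factors were an alternative. Gene members, lists and call rule were chosen with earlier results of these data known. Values are given in full for called Hox genes and the 8 highest in either library, and in each list for the 2 genes with the most reads and the 2 with the largest ratio among those with at least 20 reads. Results for some genes are not reported here. Other genes named from a list were picked after their values were seen.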

Additional observations from a re-analysis of the deposited data

How the results depend on the processing

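Over the 10 settings at 2-fold that kept every Hox gene, 9 Hox genes were called higher in each (Hoxb8, Hoxb9, Hoxb13, Hoxc6, Hoxc11, Hoxd1, Hoxd3, Hoxd4 and Hoxd13) and 3 lower (Hoxa4, Hoxa7 and Hoxd9). The other settings at 2-fold removed genes: a minimum mean CPM of 1 took out Hoxc5, Hoxd1, Hoxd13 and Hoxa7 among others, and leaving out members with overlapping annotation took out Hoxd3, Hoxd4, Hoxa4 and Hoxa7 among others. Scaling shifted the all-gene median (log2) by 0.29 with unscaled totals, 0.11 with DESeq2, 0.12 with TMM over all genes (an alternative chosen after seeing the data) and 1.003 with the totals behind the RPKM. Higher genes were 42.6% of all calls, 56.1% with unscaled totals and 57.0% at a mean CPM of at least 1. With the RPKM totals 17 Hox genes were higher and 3 lower, 8501 and 1723 of all genes, the Hox median was 1.23, and the log2 ratios turned positive for Hoxa5 (0.62), Hoxa11 (0.68), Hoxa13 (0.94), Hoxb1 (0.24), Hoxb3 (0.13), Hoxb7 (0.68), Hoxc9 (0.79) and Hoxc13 (0.54). Summed log2 ratios were then −0.16 for Hoxa, 1.21 for Hoxb, 1.31 for all Hox genes, 0.10 for the anterior and 2.00 for the central genes. With unscaled totals Hoxa13 was at 0.22, Hoxc9 at 0.077, the Hoxa sum at −0.88, no longer called, and the central sum at 1.29, called higher. Hoxa13 was at 0.047 with DESeq2 and 0.052 with TMM over all genes, the Hoxa sum at −1.05 in both, and the central sum at 1.12 in both. With DESeq2 the Hoxa sum was no longer called and the central sum was called higher. Calls lost were Hoxa2 with unscaled totals, Hoxa2, Hoxb2, Hoxd8 and Hoxd12 among others with the RPKM totals, and Hoxc5 and Hoxd12 with halved reads. Causes were not tested.

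A minimum mean CPM of 1 left 21 Hox genes, 7 of them higher and 5 lower, and a central sum of 1.13. Of the 17438 genes past that minimum, 2530 (14.5%) were higher and 1907 (10.9%) lower. Summing transcripts put the Hoxa sum at −1.03. At 1.5-fold 4437 of all genes were higher and 5884 lower. At 4-fold 6 Hox genes were higher and 3 lower, with 944 and 1727 of all genes. Halving the reads (divisor 2) left the Hoxc sum at 1.19, no longer called. Over members without overlapping annotation, chosen after seeing the data, 8 Hox genes were higher and 3 lower. Summed log2 ratios there were 0.46 for Hoxa, 1.71 for Hoxb, −0.83 for Hoxd, 1.13 for all Hox genes and 0.56 for the anterior genes. With all members they were −1.17 for Hoxa (called lower), 0.21 for Hoxb and 1.18 for Hoxc (called higher). Reads summed over all Hoxd members were 2.83-fold higher (interval 2.55 to 3.14). The Hoxa and Hoxd sums thus changed sign without the overlapping members. Without its member with the most reads, the sum was −1.03 for Hoxa, −0.26 for Hoxb, 0.75 for Hoxc, 0.55 for Hoxd and 1.05 for the posterior genes. No paired analysis was possible because each group had 1 library, and leaving out a library was not possible for the same reason. Depth limits genes such as Hoxa6, with 5 reads in MHC-II high and 4 in MHC-II low.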
